A study of Mus musculus with 9 samples.

Results

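The trophoblast transcription factors examined here were Cdx2, Eomes, Elf5, Tfap2c, Tfap2a, Hand1, Gata3, Tead4 and Ets2, regulators of the trophectoderm and of the trophoblast that grows from it. They were taken from the array table by gene symbol. Each of the 9 genes matched 1 transcript cluster (the probes that an array summarises as 1 transcript), and each of these clusters carries that symbol alone. They are 9 of the 22999 transcript clusters counted here. Levels were compared across 3 genotypes of mouse embryonic stem (ES) cells, with 3 arrays per genotype. The wild-type (WT) cells were of the v6.5 line, the Dgcr8 knockout (KO) cells lack the RNA-binding protein that works with Drosha as the Microprocessor, and the Dicer KO cells lack the RNase that cuts the hairpins that the Microprocessor releases. The Dgcr8 null allele is an exon deletion. The Dicer allele, the strain of the knockout lines and the number of clones were not found in the labels or the methods, so each genotype stands here for 1 line, and a difference between genotypes cannot be told apart from a difference between lines. The study used these arrays to look for mRNAs that changed when the Microprocessor was lost and not when Dicer was lost.

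The trophectoderm is the outer layer of the blastocyst and forms the trophoblast of the placenta. In its cells Tead4, kept active by Yap1 when Hippo signalling is low, turns on Cdx2 and Gata3. Eomes, Elf5, Tfap2c and Ets2 then maintain trophoblast stem cells under Fgf4, Tfap2a acts in later trophoblast, and Hand1 drives giant cells. ES cells come from the inner cell mass, where Pou5f1 and its partners, repressive chromatin and DNA methylation hold this programme down. Both mutants lack the miRNAs that need the Microprocessor and Dicer in turn, and Dicer also makes other small RNAs.

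The values are log2 levels as deposited. Probes differ in brightness, so the level of 1 gene is set against others only through the cut for the dimmest 25% of clusters. That cut is a rough guide. A ratio is the mean log2 level of 1 genotype minus that of another, so that 1 is a doubling. It was tested with limma, and a transcript was called when its p-value, adjusted by Benjamini-Hochberg over all 22999 clusters, was under 0.05. The labels speak of triplicate plates and the methods of biological replicates, so the p-values may measure only technical spread. Array medians lay between 6.49 and 6.56. Pairs of arrays of 1 genotype correlated at an r of 0.989 to 0.994 over clusters, which are no replicates of one another. WT replicate 1, at 0.666, and Dgcr8 KO replicate 2, at -0.444, stood farthest out on the first principal component of the deviations from genotype means, which held 40.8% of the variance. Dgcr8 was at 8.85 ± 0.110 (SD, n = 3) in Dgcr8 KO and at 9.80 ± 0.0319 in WT, and Dicer1 was at 8.36 ± 0.0648 in Dicer KO and at 10.20 ± 0.0345 in WT, so each knockout was low in its own gene. All 13 clusters of 12 ES cell marker genes lay above the dimmest 25% of clusters (those with a mean below 5.49), and the list mean was 10.92 to 11.00 in WT, 11.15 to 11.21 in Dgcr8 KO and 11.18 to 11.19 in Dicer KO. Of the 9 trophoblast factors, 8 lay above the dimmest 25%, and Tfap2a lay below.

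Tead4 and Ets2 were the members that rose in both mutants, each by about a doubling in 1 of them. Gata3 and Elf5 rose in Dicer KO cells and not, by the test, in Dgcr8 KO cells. Cdx2 was called lower in Dgcr8 KO cells by a small amount, at -0.24, a call kept in 7 of 24 alternatives. Its ratio in Dicer KO cells was close to this, at -0.22, and was not called. Eomes, Hand1 and Tfap2a were called in neither mutant, and Tfap2c differed only between the mutants. In Dgcr8 KO relative to WT, 2 members were called higher and 1 lower, or 33.3% of the 9, while 33% of all clusters were called, 15.7% higher and 17.3% lower. In Dicer KO relative to WT, 4 members were called higher and 0 lower, or 44.4%, while 36.8% of all clusters were called, 17.8% higher and 19.1% lower. The share of members called was therefore near the background in Dgcr8 KO and less than 1 member above it in Dicer KO. With the dimmest 25% of clusters left out, 3 and 5 of the 8 members left were called, with Cdx2 added as lower in Dicer KO. Of all clusters, 45.2% and 50% were then called. Most clusters of each list below also lay above that cut, so their shares stand less far above this background. At an unadjusted p under 0.05, 1 member, Cdx2, was lower in Dicer KO, and SAM, the permutation test that the study names, called 0 lower. The 9 members had a median ratio of -0.07 for Dgcr8 KO and of 0.14 for Dicer KO, beside medians over all clusters of -0.01 and -0.06. Both comparisons use the same WT arrays, and in bulk RNA more cells of a type and more RNA per cell cannot be told apart.

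**Figure D1:**
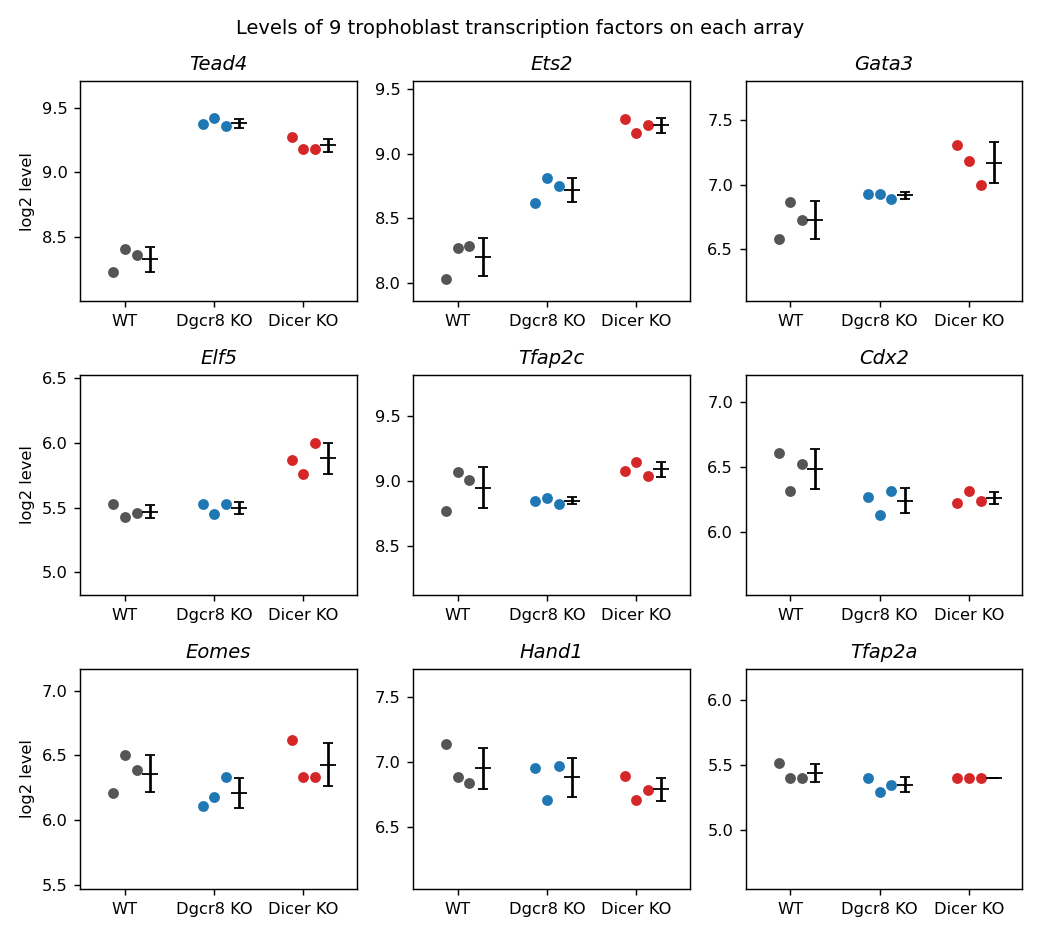
Log2 level of each of the 9 trophoblast transcription factors on each array, by genotype. Points are single arrays, horizontal bars are genotype means and vertical bars are ± 1 SD (n = 3), and every panel spans the same number of log2 units. The Tead4 and Ets2 points of both mutants lie above all WT points, and the Elf5 points of Dicer KO lie above those of the other genotypes.

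Tead4 is the DNA-binding protein through which Yap1 acts in the trophectoderm, and it lies on chromosome 6 from 128227143 to 128300813 in GRCm38.p6. Log2 levels of Tead4 were 8.23, 8.41 and 8.36 in WT replicates, 9.37, 9.42 and 9.36 in Dgcr8 KO replicates and 9.27, 9.18 and 9.18 in Dicer KO replicates. The 3 genotypes did not overlap, and all 6 mutant arrays lay above all WT arrays. The ratio to WT was 1.05 in Dgcr8 KO (SE 0.0584, 2.07-fold, adjusted p = 1.18e-06, limma). In Dicer KO it was 0.88 (SE 0.0584, 1.84-fold, adjusted p = 2.54e-06, limma). These ratios were larger in size than 97.5% and 95% of the ratios of all clusters in the same comparison. Over the 24 alternatives run, they stayed between 0.98 and 1.10 in Dgcr8 KO and between 0.81 and 0.92 in Dicer KO, and they were called in each. The Dgcr8 KO mean of Tead4 exceeded the Dicer KO mean by 0.17 (95% confidence interval 0.04 to 0.30), which did not pass the threshold (adjusted p = 0.0631, limma).

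Ets2 is an ETS-family activator that responds to Fgf and Erk signalling, and it is needed in the trophoblast next to the embryo. It lies on chromosome 16 from 95702407 to 95721049. Log2 levels of Ets2 were 8.03, 8.27 and 8.29 in WT replicates, 8.62, 8.81 and 8.75 in Dgcr8 KO replicates and 9.27, 9.16 and 9.22 in Dicer KO replicates. The genotypes formed 3 steps without overlap, with WT lowest and Dicer KO highest. The ratio to WT was 0.53 in Dgcr8 KO (SE 0.0800, 1.44-fold, adjusted p = 0.000669, limma). In Dicer KO it was 1.02 (SE 0.0800, 2.03-fold, adjusted p = 7.71e-06, limma). Without WT replicate 1 and Dgcr8 KO replicate 2 the ratios of Ets2 were 0.40 and 0.94, both still called.

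Gata3 is a zinc-finger factor that can turn on trophoblast genes, and it lies on chromosome 2 from 9857078 to 9887953. Log2 levels of Gata3 were 6.58, 6.87 and 6.73 in WT replicates, 6.93, 6.93 and 6.89 in Dgcr8 KO replicates and 7.31, 7.18 and 7.0 in Dicer KO replicates. The steps ran in the same order as those of Ets2, but WT replicate 2, at 6.87, lay close to Dgcr8 KO replicate 3, at 6.89. In Dicer KO the ratio to WT was 0.44 (SE 0.0912, 1.36-fold, adjusted p = 0.00398, limma). In Dgcr8 KO it was 0.19 (95% confidence interval -0.01 to 0.40, adjusted p = 0.153, limma), which was not called.

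Elf5 is an ETS-family factor of trophoblast stem cells whose gene is known to be methylated in cells of the embryo proper, and it lies on chromosome 2 from 103412098 to 103450989. Log2 levels of Elf5 were 5.53, 5.43 and 5.46 in WT replicates, 5.53, 5.45 and 5.53 in Dgcr8 KO replicates and 5.87, 5.76 and 6.0 in Dicer KO replicates. The 3 Dicer KO arrays lay above the other 6, which overlapped and sat at the edge of the dimmest 25% of clusters. The ratio to WT was 0.41 in Dicer KO (SE 0.0654, 1.33-fold, adjusted p = 0.000877, limma). In Dgcr8 KO it was 0.03 (95% confidence interval -0.12 to 0.18, adjusted p = 0.787, limma).

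Sequence before the start of transcription was held for 6 of the 9 members, from RefSeq of GRCm38.p6, and none was held for Tead4, Tfap2c and Hand1. The windows of the 3 members that rose in Dicer KO and had one are shown, because their base composition differs, each as the 250 bases before a start, on the strand of the gene, 5′ to 3′. They lie at chr16:95702157-95702406 (plus strand) for Ets2, chr2:9878601-9878850 (minus strand) for Gata3, and chr2:103411848-103412097 and chr2:103423818-103424067 (plus strand) for Elf5. The start used for Gata3 and the second one for Elf5 lie inside the span of the gene. Capitals mark matches on either strand to 6 motifs of the factor families in the list. The motif searched for Tead4 and its relatives was GGAATG. For the AP-2 factors Tfap2a and Tfap2c it was GCCNNNGGC, and for the ETS factors it was CCGGAA. Zinc-finger factors of the Gata family were given the letters AGATAA. The T-box motif of Eomes was written as GGTGTG, and the homeobox motif of Cdx2 as TTTATG.
Ets2: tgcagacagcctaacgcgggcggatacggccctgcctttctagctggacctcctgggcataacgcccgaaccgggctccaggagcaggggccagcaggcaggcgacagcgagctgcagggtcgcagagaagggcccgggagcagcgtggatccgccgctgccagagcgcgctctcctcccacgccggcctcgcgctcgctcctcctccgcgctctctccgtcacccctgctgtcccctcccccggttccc
Gata3: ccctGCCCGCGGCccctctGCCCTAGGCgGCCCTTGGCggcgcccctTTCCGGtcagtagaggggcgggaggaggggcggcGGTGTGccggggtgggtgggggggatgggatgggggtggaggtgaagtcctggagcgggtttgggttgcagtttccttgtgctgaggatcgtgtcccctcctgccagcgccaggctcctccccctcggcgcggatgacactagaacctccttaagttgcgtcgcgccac
Elf5, first start: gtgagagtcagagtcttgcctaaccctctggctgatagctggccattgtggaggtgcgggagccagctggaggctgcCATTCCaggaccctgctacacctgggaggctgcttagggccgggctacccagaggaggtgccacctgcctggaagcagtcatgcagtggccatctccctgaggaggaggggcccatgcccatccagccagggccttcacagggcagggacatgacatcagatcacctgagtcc
Elf5, second start: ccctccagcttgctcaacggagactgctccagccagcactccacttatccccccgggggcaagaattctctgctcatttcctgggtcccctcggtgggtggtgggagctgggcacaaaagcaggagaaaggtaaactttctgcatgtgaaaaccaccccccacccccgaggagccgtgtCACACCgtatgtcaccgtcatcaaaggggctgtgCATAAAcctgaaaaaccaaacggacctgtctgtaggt
The Ets2 window was 71.6% G and C, with 25 CpG dinucleotides, beside a median of 52.4% and 6 over all 32841 windows of the same length, and it held none of the 6 motifs. The Gata3 window was 70% G and C with 19 CpG dinucleotides, and it held 3 AP-2 matches, 1 ETS match and 1 T-box match. The first Elf5 window held 2 CpG dinucleotides, which is 0.0814 of the number that its C and G content would give, and 1 TEAD match. The second Elf5 window held 8 CpG dinucleotides, 1 CDX match and 1 T-box match. Of the windows not shown, that of Cdx2 held 13 CpG dinucleotides and 1 AP-2 match. That of Eomes held 8 CpG dinucleotides and none of the 6 motifs. The first and second Tfap2a windows held 10 CpG dinucleotides each, with 1 CDX match in the first and no match in the second. Among all windows, 13.7% held an AP-2 match, 12% an ETS match, 16.3% a T-box match, 12.6% a TEAD match, 10.8% a CDX match and 9.99% a GATA match, so each match is a common one. A further motif, the E-box bound by Hand1 and its relatives (CANNTG, not in capitals), was in 66.2% of windows, with 4 matches in the first Elf5 window, 1 in the second and 0 in those of Ets2 and Gata3. A match is a string of letters and was not shown to be a binding site.

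Cdx2 is the homeobox factor that sets up the trophectoderm, and it lies on chromosome 5 from 147300900 to 147307249. Log2 levels of Cdx2 were 6.61, 6.31 and 6.52 in WT replicates, 6.27, 6.13 and 6.31 in Dgcr8 KO replicates and 6.22, 6.31 and 6.24 in Dicer KO replicates. WT replicates 1 and 3 lay above all mutant arrays, and WT replicate 2 lay among them. The ratio to WT was -0.24 in Dgcr8 KO (SE 0.0814, 1.18-fold lower, adjusted p = 0.0476, limma). This call was kept in 7 of the 24 alternatives and was lost on leaving out any single array other than WT replicate 2, with adjusted p from 0.00832 to 0.258 over the alternatives fitted with limma. In Dicer KO the ratio of Cdx2 was -0.22 (95% confidence interval -0.41 to -0.04, adjusted p = 0.0600, limma), and it was called in 2 of the 24 alternatives.

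Tfap2c, or AP-2 gamma, is expressed in trophoblast stem cells and in the germline, and it lies on chromosome 2 from 172545678 to 172558622. Log2 levels of Tfap2c were 8.77, 9.07 and 9.01 in WT replicates, 8.85, 8.87 and 8.82 in Dgcr8 KO replicates and 9.08, 9.15 and 9.04 in Dicer KO replicates. The WT arrays spanned all Dgcr8 KO arrays and overlapped the Dicer KO arrays, of which replicates 1 and 2 lay above every WT array, and WT replicate 1 was lowest of all 9. Neither ratio to WT was called, at -0.10 (95% confidence interval -0.28 to 0.07) in Dgcr8 KO and 0.14 (95% confidence interval -0.03 to 0.31) in Dicer KO. Without WT replicate 1 the ratio of Tfap2c in Dgcr8 KO was -0.19 and was called (adjusted p = 0.0192, limma).

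Tfap2a, or AP-2 alpha, acts in trophoblast and in the neural crest, and it lies on chromosome 13 from 40713802 to 40738238. Log2 levels of Tfap2a were 5.52, 5.4 and 5.4 in WT replicates, 5.4, 5.29 and 5.35 in Dgcr8 KO replicates and 5.4, 5.4 and 5.4 in Dicer KO replicates. The same value stood on 6 of the 9 arrays and the gene lay in the dimmest 25%, so its levels have no order here. Repeated values are common in the table, where 48.7% of the clusters hold an exact value on at least 2 arrays and 5.26% on at least 5. Among the other members an exact value stood on 3 arrays for Cdx2 (6.31), Eomes (6.33) and Elf5 (5.53). It stood on 2 arrays for Gata3 (6.93) and Tead4 (9.18).

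Eomes (chromosome 9, 118478186 to 118486132), a T-box factor of trophoblast stem cells and of the primitive streak, had log2 levels of 6.21, 6.5 and 6.39 in WT replicates, 6.11, 6.18 and 6.33 in Dgcr8 KO replicates and 6.62, 6.33 and 6.33 in Dicer KO replicates. All 3 genotypes overlapped. The ratio to WT was -0.16 in Dgcr8 KO (95% confidence interval -0.39 to 0.07) and 0.06 in Dicer KO (95% confidence interval -0.17 to 0.29), and neither was called. Hand1 (chromosome 11, 57828713 to 57832147), a basic helix-loop-helix factor of giant cells and of heart and other mesoderm, had log2 levels of 7.14, 6.88 and 6.84 in WT replicates, 6.95, 6.71 and 6.97 in Dgcr8 KO replicates and 6.89, 6.71 and 6.78 in Dicer KO replicates. These also overlapped, and WT replicate 1 was the highest. The ratio of Hand1 was -0.07 in Dgcr8 KO (95% confidence interval -0.29 to 0.15) and -0.16 in Dicer KO (95% confidence interval -0.38 to 0.06), and it was called in neither mutant under any alternative run.

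The mutants were then compared with each other. Ets2, Elf5 and Tfap2c were lower in Dgcr8 KO when set against Dicer KO, and 0 members were called higher by limma (1, Tead4, at an unadjusted p under 0.05 and by SAM). Tead4 was called higher in 9 of 24 alternatives. The 3 members called by limma are 33.3% of the 9, while 24.6% of all clusters were called, 11.2% higher and 13.4% lower. The median ratio of the members was -0.22, beside 0.03 over all clusters. Ets2 was lower by 1.41-fold, with a ratio of -0.49 (SE 0.0800, adjusted p = 0.00180, limma). Elf5 was lower by 1.30-fold, with a ratio of -0.38 (SE 0.0654, adjusted p = 0.00270, limma). Tfap2c was lower by 1.18-fold, with a ratio of -0.24 (SE 0.0765, adjusted p = 0.0460, limma). The Tfap2c arrays of the mutants did not overlap, but its call was kept in 14 of 24 alternatives and was lost without any 1 of the mutant arrays or WT replicate 3. Gata3 had a ratio of -0.25 (95% confidence interval -0.45 to -0.04, adjusted p = 0.0798, limma), and it was called in 4 of 24 alternatives. Eomes had a ratio of -0.22 (95% confidence interval -0.45 to 0.01), Cdx2 of -0.02 (95% confidence interval -0.20 to 0.16), Hand1 of 0.08 (95% confidence interval -0.14 to 0.30) and Tfap2a of -0.05 (95% confidence interval -0.17 to 0.06). None of these last 4 was called.

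**Figure D2:**
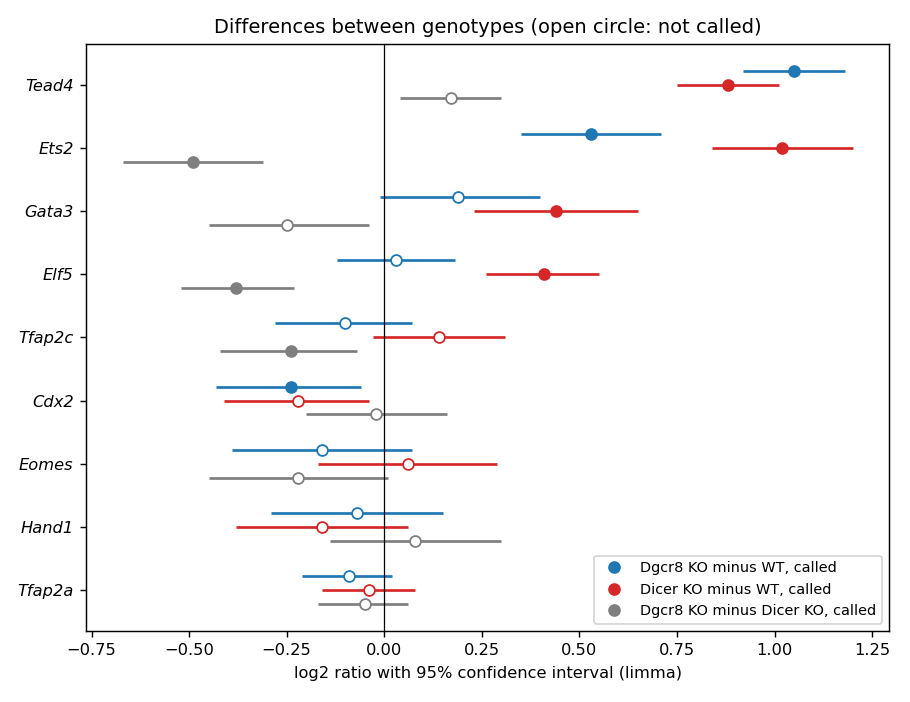
Log2 ratio of each trophoblast transcription factor in 3 comparisons of genotypes, with its 95% confidence interval from limma (9 arrays, 3 per genotype). Filled circles are called at an adjusted p under 0.05 and open circles are not. Tead4 and Ets2 stand to the right in both mutants relative to WT, from 0.53 to 1.05, while Cdx2 stands to the left at -0.24 and -0.22.

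The relatives of the members in their gene families were read in the same way. Of 24 clusters of 23 such genes, 3 rose and 2 fell in Dgcr8 KO, and 3 rose and 3 fell in Dicer KO. These are 20.8% and 25% of the list, below the 33% and 36.8% called among all clusters. With the dimmest 25% of clusters left out, 45.2% and 50% of all clusters were called. Elf3, an epithelial relative of Elf5, rose by 0.53 (SE 0.0533) in Dgcr8 KO and by 1.73 (SE 0.0533) in Dicer KO. Elf1, a broadly expressed ETS factor, rose by 0.73 (SE 0.121) and by 1.31 (SE 0.121). Ehf, also an epithelial ETS factor, rose by 0.67 (SE 0.0874) in Dicer KO, although its mean level lay in the dimmest 25%. Tead3, the relative of Tead4 that is prominent in placenta, fell, with ratios of -0.31 (SE 0.0470) in Dgcr8 KO and -0.46 (SE 0.0470) in Dicer KO, opposite to Tead4. Gata4, a factor of primitive endoderm, rose by 0.35 (SE 0.0764) in Dgcr8 KO and differed between the mutants by 0.52 (SE 0.0764, adjusted p = 0.000987, limma). Between the mutants 4 clusters of the family list were called higher in Dgcr8 KO and 3 lower, a split that turned to 2 and 4 when each array was centred on its median. The share called between the mutants was 29.2%, beside 24.6% of all clusters.

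Tead4 is the end point of Hippo signalling, in which Nf2 and the kinases Lats1 and Lats2 keep Yap1 out of the nucleus. Of 18 clusters of 17 measured Hippo genes, 7 rose and 5 fell in Dgcr8 KO, and 7 rose and 4 fell in Dicer KO. The shares called were 66.7% and 61.1%, beside 33% and 36.8% of all clusters. Lats2 rose by 2.28 (SE 0.126) in Dgcr8 KO and by 2.17 (SE 0.126) in Dicer KO, and Lats1 by 0.89 (SE 0.0629) and 0.82 (SE 0.0629). Nf2 rose by 0.59 (SE 0.0833) in Dgcr8 KO and by 0.51 (SE 0.0833) in Dicer KO. Mob1b, a partner of the Lats kinases, rose by 0.48 (SE 0.0878) and by 0.98 (SE 0.0878). Stk4, the kinase upstream of Lats1 and Lats2, fell, with ratios of -0.47 (SE 0.0598) in Dgcr8 KO and -0.35 (SE 0.0598) in Dicer KO. In Dgcr8 KO the split of higher and lower turned to 4 and 5 with SAM, with arrays centred on the median and without WT replicate 1. The partner Yap1 and the relative Tead2, singled out after their values were seen, were called in neither mutant, with ratios of -0.06 and -0.09 for Yap1 and of -0.08 and 0.03 for Tead2.

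Fgf4 signals through Fgfr2 and Erk to keep trophoblast stem cells dividing, and Ets2 is among the factors it acts on. Of 19 clusters of 18 measured Fgf and Erk genes, 2 rose and 10 fell in Dgcr8 KO, and 2 rose and 12 fell in Dicer KO. The shares called were 63.2% and 73.7%, beside 33% and 36.8% of all clusters. The phosphatase Dusp4, which is made in response to Erk and limits it, fell, with ratios of -1.71 (SE 0.0938) in Dgcr8 KO and -2.20 (SE 0.0938) in Dicer KO. Dusp6, a phosphatase of the same kind, fell, with ratios of -1.23 (SE 0.0690) and -0.91 (SE 0.0690). The feedback inhibitor Spry2 fell, with ratios of -0.86 (SE 0.0568) and -1.5 (SE 0.0568). The receptor Fgfr2 fell, with ratios of -0.60 (SE 0.0587) in Dgcr8 KO and -1.24 (SE 0.0587) in Dicer KO. Those of the ETS factor Etv4 were -1.33 (SE 0.0800) and -0.24 (SE 0.0800), both called. Fgf4 itself, singled out after its values were seen, rose by 0.55 (SE 0.0522) in Dgcr8 KO and by 0.50 (SE 0.0522) in Dicer KO. The mean log2 level of the list was 8.70 to 8.73 in WT, 8.26 to 8.30 in Dgcr8 KO and 8.27 to 8.29 in Dicer KO.

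Of 20 clusters of 18 genes known to hold trophoblast genes down in ES cells, 5 rose and 5 fell in Dgcr8 KO, and 7 rose and 7 fell in Dicer KO. The shares called were 50% and 70%, beside 33% and 36.8% of all clusters. With the dimmest 25% of clusters left out, 11 and 16 of the 19 clusters left were called, beside 45.2% and 50% of all clusters. In Dgcr8 KO the split depended on the scaling, with 2 higher and 5 lower when arrays were centred on the median, 9 and 5 with quantile normalization repeated and 8 and 5 with cyclic loess, and SAM called 2 and 3. The DNA methyltransferase Dnmt3a fell, with ratios of -1.71 (SE 0.0412) in Dgcr8 KO and -2.08 (SE 0.0412) in Dicer KO, and those of its relative Dnmt3b were -1.32 (SE 0.0634) and -1.36 (SE 0.0634). Mbd3, a subunit of the NuRD deacetylase complex, fell, with ratios of -0.24 (SE 0.0498) in Dgcr8 KO and -0.41 (SE 0.0498) in Dicer KO. The pluripotency factor Nanog rose by 0.77 (SE 0.0458) and by 1.10 (SE 0.0458), and Sox2 by 0.35 (SE 0.0526) and by 0.42 (SE 0.0526). Pou5f1, Nanog and Sox2 also stand in the ES cell marker list, of which 8 of 13 clusters rose and 1 fell in Dgcr8 KO, and 7 rose and 2 fell in Dicer KO. That list was called at 69.2% in each mutant.

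Other genes of the trophoblast moved in both directions. Of 17 clusters of other trophoblast transcription factors, 3 rose and 6 fell in Dgcr8 KO, and 4 rose and 2 fell in Dicer KO. The shares called were 52.9% and 35.3%, beside 33% and 36.8% of all clusters. Id2, which binds basic helix-loop-helix factors and keeps them from DNA, rose by 0.96 (SE 0.0725) and by 1.48 (SE 0.0725). Grhl2, an epithelial regulator, fell by 0.76 (SE 0.0611) in Dgcr8 KO, and Sox15, a factor of giant cells, fell by 0.48 (SE 0.0600), while Sox21 rose by 0.45 (SE 0.0441). In Dicer KO the zinc-finger factor Klf5 rose by 0.43 (SE 0.0519) and the coactivator Cited2 by 0.49 (SE 0.0621), while Ascl2, needed for the spongiotrophoblast, fell by 0.47 (SE 0.0751). In the direct comparison 2 of the 17 were higher in Dgcr8 KO and 9 were lower, or 64.7%, beside 24.6% of all clusters.

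Of 18 clusters of 17 measured trophectoderm and trophoblast stem cell marker genes, 4 rose and 11 fell in Dgcr8 KO, and 7 rose and 9 fell in Dicer KO. The shares called were 83.3% and 88.9%, beside 33% and 36.8% of all clusters. Aqp3, a channel for water and glycerol, rose by 2.39 (SE 0.0602) and by 3.19 (SE 0.0602). Krt18 and Krt8, the paired keratins of the trophectoderm, fell in Dgcr8 KO, with ratios of -2.0 (SE 0.0617) and -1.42 (SE 0.0527). Plet1, a surface protein of trophoblast progenitors, rose by 1.35 (SE 0.0702) in Dgcr8 KO, and the homeobox gene Rhox9 rose by 2.05 (SE 0.0831) in Dicer KO. The endocytic receptor Lrp2 fell by 1.54 (SE 0.0529) in Dicer KO. Krt8, Krt18 and Rhox9 have close copies in the genome whose RNA could reach the same probes, so their values are less certain. The mean log2 level of the list was 8.0 to 8.07 in WT, 7.83 to 7.84 in Dgcr8 KO and 8.25 to 8.26 in Dicer KO, while the mean of the 9 factors was 6.96 to 7.01, 7.09 to 7.15 and 7.24 to 7.33. The markers had a median ratio of -0.46 in Dgcr8 KO cells and of -0.15 in Dicer KO cells, while the factors had medians of -0.07 and 0.14, so the mean and the median of the markers in Dicer KO and of the factors in Dgcr8 KO differed in sign. Among marker clusters called and changed by at least 1.5-fold in Dicer KO, 6 were higher and 3 lower. Of all clusters called at that threshold in Dicer KO, 66% were higher, so this split was near the background.

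**Figure D3:**
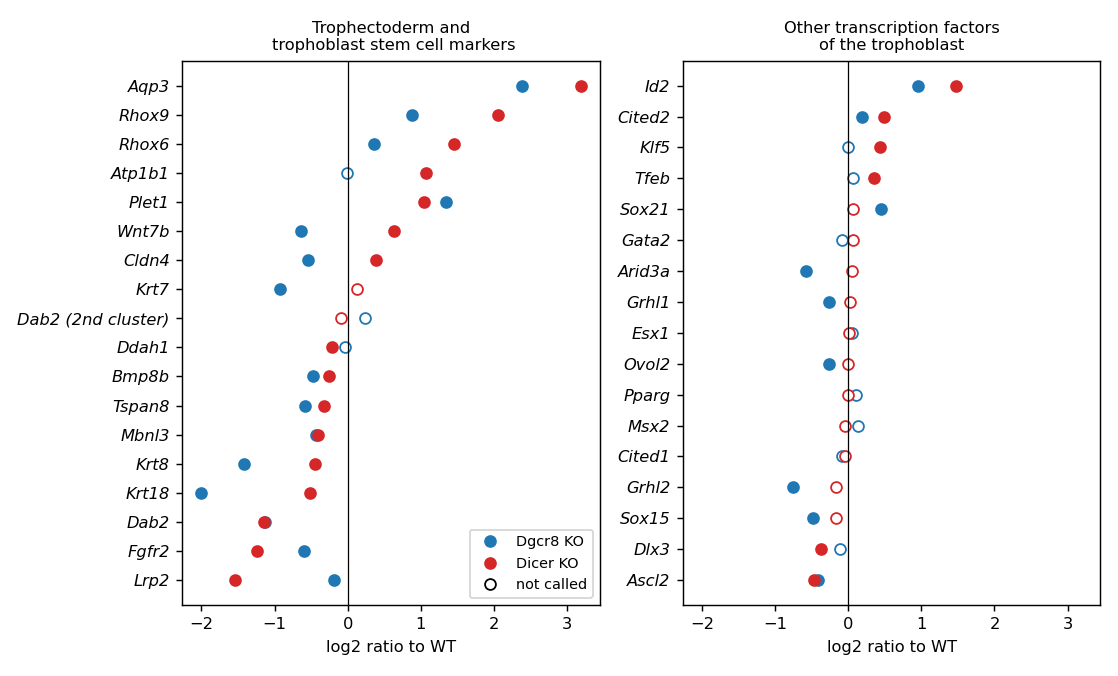
Log2 ratio to WT of each cluster of trophectoderm and trophoblast stem cell marker genes (left) and of other trophoblast transcription factors (right), in Dgcr8 KO and Dicer KO (3 arrays each, ratios of means). Filled circles are called by limma at an adjusted p under 0.05 and open circles are not. Aqp3 is highest in both mutants at 2.39 and 3.19, and Krt18 is lowest in Dgcr8 KO at -2.0.

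Among 17 clusters of differentiated trophoblast and placenta genes, limma called 0 higher and 8 lower in Dgcr8 KO, and 0 higher and 9 lower in Dicer KO. The shares called were 47.1% and 52.9%, beside 33% and 36.8% of all clusters. The counts of higher clusters were also 0 at an unadjusted p under 0.05 and by SAM. Phlda2, an imprinted gene that limits placental growth, fell, with ratios of -2.66 (SE 0.0703) and -2.57 (SE 0.0703). Peg10, a retrotransposon-derived gene needed for the placenta, fell, with ratios of -2.23 (SE 0.0789) and -1.96 (SE 0.0789). Sfmbt2, an imprinted Polycomb-group gene, fell, with ratios of -2.52 (SE 0.0631) and -0.99 (SE 0.0631). The lactate transporter Slc16a3 fell as well, with ratios of -0.19 (SE 0.0526) and -0.93 (SE 0.0526). These genes are also expressed outside the trophoblast. The defining genes Tpbpa, Ctsq and Ctsj lay in the dimmest 25% in every genotype, with means of 3.83, 3.89 and 3.69 for Tpbpa in WT, Dgcr8 KO and Dicer KO, and so did the trophoblast genes Plac1 and Hsd3b6.

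Several members are also expressed in other cell types, so the markers of these were read beside them. Of 13 clusters of surface ectoderm markers, 3 rose and 2 fell in Dgcr8 KO, and 5 rose and 0 fell in Dicer KO (0 also at an unadjusted p under 0.05 and by SAM), where Gata3, Elf5 and Ets2 also rose. The share called was 38.5% in each mutant, near the 33% and 36.8% of all clusters. In Dicer KO this share was all higher, while 17.8% of all clusters were called higher and 19.1% lower. Krt17, a keratin of epidermal appendages, rose by 1.69 (SE 0.0489) and by 3.47 (SE 0.0489). Dsp, which builds desmosomes, rose by 0.43 (SE 0.0598) in Dgcr8 KO and by 2.05 (SE 0.0598) in Dicer KO. Krtdap, a gene of differentiating epidermis, rose by 0.57 (SE 0.159) and by 2.99 (SE 0.159). Perp, also of desmosomes, was not called in Dgcr8 KO and rose by 0.93 (SE 0.0877) in Dicer KO. The 2 clusters of Sfn, singled out after their values were seen, fell in Dgcr8 KO, with ratios of -0.64 (SE 0.0722) and -0.79 (SE 0.0504). Sfn was not called in Dicer KO, at 0.09 and 0.12. The defining genes of basal epidermis, Krt5, Krt14 and Trp63, were not called in Dicer KO, with ratios of -0.09, 0.18 and -0.05, nor were Dlx5 at -0.18 and Msx1 at 0.03, all singled out after their values were seen. The median ratio of the list in Dicer KO was 0.12. Between the mutants 0 clusters were called higher in Dgcr8 KO (0 also at an unadjusted p under 0.05 and by SAM). There 7 were called lower, or 53.8%, beside 24.6% of all clusters, and the median ratio was -0.57. The mean of the list was 7.28 to 7.35 in WT, 7.36 to 7.46 in Dgcr8 KO and 8.07 to 8.10 in Dicer KO, and all 13 clusters lay above the dimmest 25%. The part of such cells in the Gata3, Elf5 and Ets2 results was not tested.

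Of 14 clusters of mesoderm and primitive streak markers, 3 rose and 0 fell in Dgcr8 KO (1 at an unadjusted p under 0.05 and 0 by SAM), and 1 rose and 2 fell in Dicer KO. In Dicer KO the split turned to 2 higher and 0 lower with cyclic loess, 2 and 1 with quantile normalization repeated and 1 and 0 over all rows of the table. Kdr, a receptor of vascular mesoderm, rose by 1.14 (SE 0.0768) and by 2.10 (SE 0.0768). Evx1 and Tbx4 rose in Dgcr8 KO, by 0.35 (SE 0.118) and 0.48 (SE 0.118). Mixl1 and Mesp1 fell in Dicer KO, with ratios of -0.26 (SE 0.0833) and -0.31 (SE 0.101). The list mean was 6.36 to 6.54 in WT, 6.44 to 6.62 in Dgcr8 KO and 6.48 to 6.54 in Dicer KO. Of 14 clusters of primitive endoderm markers, 1 rose and 1 fell in Dgcr8 KO, and 3 rose and 2 fell in Dicer KO, where quantile normalization repeated gave 2 and 3. The endocytic receptor Cubn fell, with ratios of -1.26 (SE 0.0911) and -1.46 (SE 0.0911). Gata4 rose by 0.35 (SE 0.0764) in Dgcr8 KO. In Dicer KO Sox7 fell, with a ratio of -0.31 (SE 0.0909), while Apoe, Col4a1 and Col4a2 rose by 0.24, 0.16 and 0.28. The defining genes Sox17, Afp and Ttr lay in the dimmest 25%, and the list mean was 6.84 to 6.93 in WT, 6.73 to 6.84 in Dgcr8 KO and 6.69 to 6.75 in Dicer KO. Of 13 clusters of fibroblast and feeder cell markers, 2 rose and 0 fell in Dgcr8 KO (0 also at an unadjusted p under 0.05 and by SAM), and 1 rose and 2 fell in Dicer KO, where cyclic loess gave 2 and 1. The intermediate filament gene Vim, which many cell types use, rose by 2.31 (SE 0.0517) and by 1.62 (SE 0.0517). Twist1 rose by 0.40 (SE 0.0878) in Dgcr8 KO. In Dicer KO Mmp2 fell, with a ratio of -1.02 (SE 0.0621), and so did Dcn, at -0.26 (SE 0.0846). The matrix genes Lum, Postn and Dcn lay in the dimmest 25%. The mean of that list was 6.38 to 6.52 in WT, 6.52 to 6.71 in Dgcr8 KO and 6.39 to 6.47 in Dicer KO. In Dgcr8 KO the mesoderm, primitive endoderm and fibroblast lists were called at 21.4%, 14.3% and 15.4%, beside 33% of all clusters. In Dicer KO they were called at 21.4%, 35.7% and 23.1%, beside 36.8%.

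**Figure D4:**
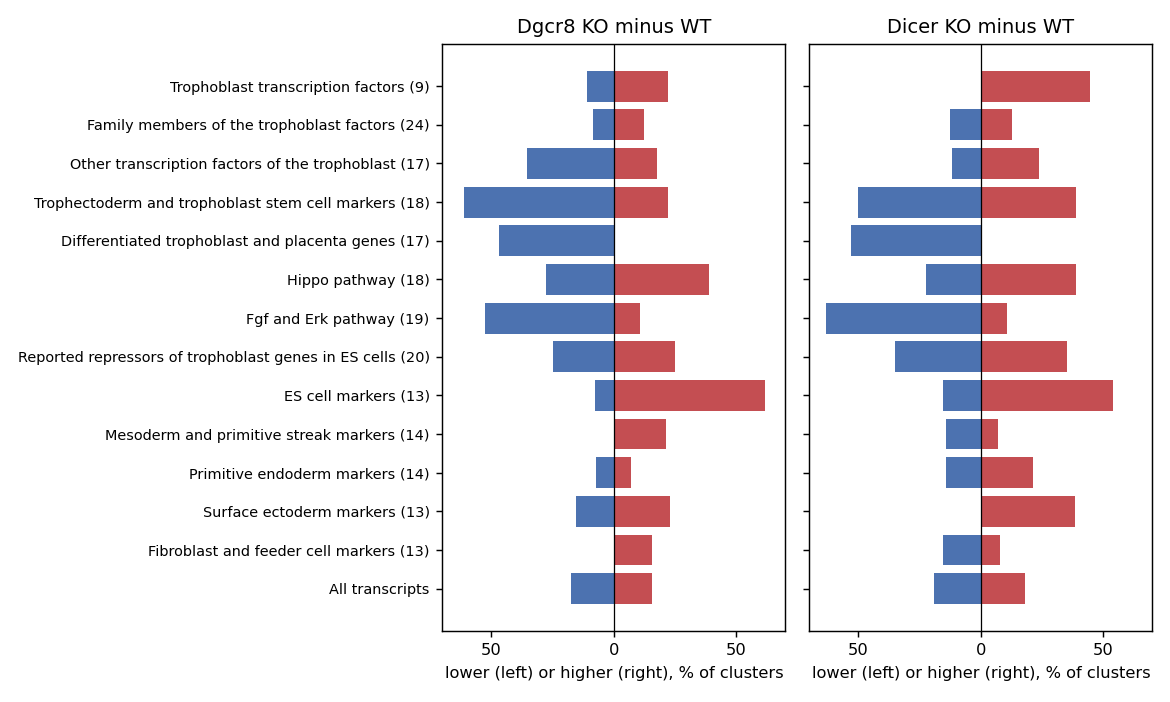
Share of the clusters of each gene list called higher (right of 0) and lower (left of 0) in Dgcr8 KO and Dicer KO relative to WT, in percent, with the number of clusters in parentheses and all 22999 transcripts as the last bar. Lists share some genes, and the shares were not tested against the background. The last bar includes the dimmest 25% of clusters, and without them 45.2% and 50% of all clusters were called. The differentiated trophoblast and placenta list has no bar to the right in either mutant, and the trophoblast transcription factors have none to the left in Dicer KO.

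Other transcripts followed the members across the 9 arrays. Among 20035 transcripts compared, the highest Pearson r with Tead4 was 0.999 for Susd1 and 0.998 for Atl3, with Ets2 0.997 for Tmed2 and 0.997 for P4ha1, with Gata3 0.990 for Alg9 and 0.984 for Ppp6r2, and with Elf5 0.979 for Tinagl1 and 0.977 for Rundc3a. A value over 0.95 was reached by 630 transcripts for Tead4, 732 for Ets2, 32 for Gata3 and 22 for Elf5. The 9 arrays fall into 3 genotypes, so these values mostly follow the 3 genotype means, and they only describe the pattern.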

How the data were processed

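ES cell RNA of the 3 genotypes was hybridised to 9 Affymetrix 1-colour mouse gene arrays, 3 per genotype. The authors normalized the signals and deposited log2 values, with RMA per the methods or GCRMA per the processing notes. The version of either tool is not given in the sources used here. The deposited log2 values were used with no further step. They come without a measure of signal over background for each cluster, so whether a dim gene was detected was not judged. The number of arrays limits the precision. Of 35557 clusters, 12147 without a symbol in the platform annotation, 326 of miRNA genes only, 7 mitochondrial and 78 Y-linked clusters were left out. Gene positions are those of RefSeq, matched by symbol.

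R 4.3.3 and limma 3.58.1 were used. lmFit took 1 mean per genotype over all 9 arrays (6 residual degrees of freedom), and eBayes tested 3 contrasts. SAM, which the study names, was run as an alternative. It was written from its description and is not the package that the study used. All 20 permutations of the arrays within a pair of genotypes were taken. The constant that SAM adds to each standard error was 0.741 in Dgcr8 KO, 0.469 in Dicer KO and 0.162 between the mutants. Its calls therefore lean on the size of the ratio, and unequally in the 3 contrasts. In all, 16 kinds of alternative were planned. They changed the test, which arrays or clusters were fitted, how arrays were scaled or weighted, how variance was modelled and where the threshold lay, or added the replicate block or left out arrays. The scripts were tested on simulated data. The members and gene lists were chosen with earlier results of these data known, and no list was tested as a set. Every member was named, and in each other list up to 4 called clusters with the smallest adjusted p in the comparison described, with defining markers at the bottom of the array. For the 4 members with the widest range of genotype means, the 2 clusters most correlated with each were named.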

Additional observations from a re-analysis of the deposited data

Results flagged for a closer look

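The change from WT differed between the mutants for 3 members, by limma's test of Dgcr8 KO against Dicer KO. The WT arrays cancel in the ratio, but they enter the spread that the test uses. The log2 ratio of Dgcr8 KO to Dicer KO was -0.49 for Ets2, which rose in both mutants, -0.38 for Elf5, which rose in Dicer KO, and -0.24 for Tfap2c, which was called in neither mutant relative to WT. With 3 arrays per genotype, no single array was tested as an outlier.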

How the results depend on the processing

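Over the 27 ratios of members and up to 24 alternatives, 645 values were computed. Of these, 582 kept their direction and their side of the threshold, 32 lost a call, 19 gained one and 12 changed sign. Of the 10 called ratios, 3 were called under every alternative (Tead4 in both mutants and Ets2 in Dicer KO relative to WT). The calls for Ets2 in Dgcr8 KO, Gata3 and Elf5 in Dicer KO, and Ets2 and Elf5 between the mutants were lost only when at least 1.5-fold was asked for. Every ratio that changed sign was uncalled. Without WT replicate 1 the Hand1 ratio in Dgcr8 KO was 0.02 and the Eomes ratio in Dicer KO was -0.01. Without Dgcr8 KO replicate 2 they were 0.01 for Hand1 in Dgcr8 KO and 0.03 for Cdx2 between the mutants, and without both arrays 0.10 for Hand1, -0.01 for Eomes and 0.03 for Cdx2. Eomes in Dicer KO was -0.03 without Dicer KO replicate 1, and Cdx2 between the mutants was 0.01 without Dicer KO replicate 2. Median centring gave -0.01 for Elf5 in Dgcr8 KO, cyclic loess gave 0.04 for Tfap2a in Dicer KO, and array weights gave 0.03 for Hand1 in Dgcr8 KO. Over the single arrays left out, these ratios ran from -0.13 to 0.02 for Hand1, from -0.03 to 0.13 for Eomes and from -0.06 to 0.03 for Cdx2. The cause was not tested.

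Between the mutants the number of members called was 6 with SAM, 5 with cyclic loess and 5 with array weights, against 3. Of all clusters, 36.5%, 25.7% and 32.5% were called under these settings, against 24.6%. Asking for at least 1.5-fold left 1 member in Dgcr8 KO, 2 in Dicer KO and 0 between the mutants. Leaving out 1 array gave 2 to 3 members in Dgcr8 KO, 4 to 5 in Dicer KO and 2 to 5 between the mutants, where 5 were called without WT replicate 1, with Tead4 and Gata3 added. The share of all clusters called then ran from 28.6% to 34.3%, from 31.2% to 36.7% and from 18.2% to 28.5%. Between the mutants it was highest, at 28.5%, without WT replicate 1. The replicate numbers did not pair the arrays, with correlations of same-numbered deviations from -0.20 to 0.344, and with the replicate block 3, 4 and 3 members were called, as without it. Tfap2a has no value without the dimmest 25%.

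Of all clusters, 9.06%, 10.9% and 4.95% were called at 1.5-fold or more in Dgcr8 KO, in Dicer KO and between the mutants, and 24.4%, 26.7% and 14.8% at an adjusted p under 0.01. SAM called 22%, 31.5% and 36.5%. The share of calls that were higher went from 47.6% to 60.9% in Dgcr8 KO and from 48.2% to 66% in Dicer KO at 1.5-fold, and from 45.5% to 34.4% between the mutants with median centring. Of 864 counts of the other lists under alternatives, 60 moved by over 1.5 times, 29 of them at 1.5-fold and 9 at the stricter p.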
